A study of Mus musculus with 8 samples.

Results

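The glycolytic enzymes described here were Hk1, Hk2, Gpi1, Pfkl, Aldoa, Tpi1, Pgk1, Pgam1, Eno1 and Ldha, chosen by name, with every array probe annotated to them. Of the 10 genes 8 were compared, with 11 of the 25696 probes of the array and 8 of the 8285 genes measured. Gpi1 and Eno1 were not analysed here, since no probe was listed under their names. Gene expression had been measured in epididymal white adipose tissue (WAT), 1 Illumina MouseRef BeadChip array per sample, in 2 groups of male C57BL6/J mice aged 4 months and fed a low fat diet. One group of 4 samples was labelled as overexpressing angiotensinogen in the fat (Agt Tg), and the other 4 samples were of wild type (Wt) mice. The transgene is driven by the aP2 promoter, which macrophages also use, so its expression need not be limited to adipocytes. The labels do not state that every sample is a different mouse, so the p-values cover the spread between samples, which may be technical.

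Glycolysis breaks glucose down to pyruvate in the cytosol. Hexokinases (Hk1, Hk2) trap glucose as glucose 6-phosphate, Gpi1 turns it into fructose 6-phosphate, and phosphofructokinase (Pfkl is its liver type subunit) takes the committed step. Aldolase (Aldoa) splits the sugar, Tpi1 interconverts the products, Pgk1 yields ATP, Pgam1 and Eno1 prepare the last step, and lactate dehydrogenase (Ldha) converts pyruvate to lactate. In fat, glucose enters adipocytes through the insulin-responsive transporter Slc2a4 and supplies glycerol 3-phosphate for triglyceride storage, while macrophages use glycolysis during activation. Hk2 is known as an insulin-induced enzyme of fat and muscle, and many genes of the pathway are known targets of the hypoxia-inducible factors.

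Because hypoxia-inducible factors bind a short core, the promoters of all 10 genes, from 250 bases before to 50 after each start site (RefSeq, GRCm38.p6), were searched for ACGTG and GCGTG on both strands, with each strand of an overlapping pair counted. The core was chosen after the expression values were seen, and no other motif was searched. Of the 16 promoters of these genes 12 (75%) held a match, against 14380 of 32851 promoters of all genes (43.8%), and by gene the counts were 8 of 10 (80%) against 12628 of 27025 (46.7%). Gpi1 and Tpi1 held none. Start sites of a gene can lie close together, and the same match was counted in more than 1 promoter for Aldoa and for Eno1. The enzymes also had more promoters per gene than all genes, which gives each gene more windows for a match. Both cores contain CG, and the base composition of the windows was not taken into account. A match says only that these letters occur in the window. The stretches of 29 bases below show a match in capitals, on the strand of the gene, for Hk2, Pfkl, Aldoa, Pgk1, Pgam1 and Ldha. Hk1 and Eno1 also held matches, which are not shown. A link of the matches to the expression values was not tested. A match on the opposite strand reads CACGT or CACGC.
Hk2, chr6:82774490-82774518, minus strand: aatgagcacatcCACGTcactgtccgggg
Pfkl, chr10:78009890-78009918, minus strand: atttgtagactgGCGTGcgctccgccttt
Aldoa, chr7:126799364-126799392, minus strand: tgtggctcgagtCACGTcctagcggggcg
Pgk1, chrX:106186957-106186985, plus strand: aaatggaagtagCACGTctcactagtctc
Pgam1, chr19:41911771-41911799, plus strand: actgccgggtagCACGCgggtaccgctac
Ldha, chr7:46845758-46845786, plus strand: cgtgggttcccgCACGTccgctgggctcc

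Detected probes numbered 11253 to 12284 per array, and arrays of the same group correlated at 0.956 to 0.986. Values below are log2 intensities after background correction and quantile normalization, a difference is the mean of the arrays labelled Agt Tg minus that of Wt, and probes detected on at least 4 of the 8 arrays were compared. Agt itself, the gene of the transgene, did not have a higher mean in Agt Tg. It read 6.74, 8.80, 6.39 and 8.39 on Agt Tg replicates 1 to 4, against 7.50, 8.87, 8.11 and 8.09 on Wt replicates 1 to 4. Its difference was -0.56 ± 0.48 (SE, limma adjusted p = 0.718, exact two-sided permutation p = 0.4), so directions below compare arrays as labelled. The Agt difference was -0.31 on the log2 values of the authors and ran from -0.16 without Agt Tg replicate 3 to -0.97 without Agt Tg replicate 2. The sources used here do not say whether the Agt probe reads the transgene.

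None of the 8 enzymes passed at adjusted p under 0.05 between the arrays labelled Agt Tg and Wt. Pfkl was the only one whose groups did not overlap, with Agt Tg 1.25-fold higher, where 6.36% of all genes had groups that did not overlap. Under median scaling, described below, the Pfkl groups overlapped. Aldoa, Tpi1 and Pgam1 had lower means there, by less than the test could call. Over all 11624 probes the same limma test called 0 (0%) at adjusted p under 0.05. At unadjusted p under 0.05 it gave 485 probes higher and 660 lower, 9.85% in all, and for genes 3.93% were higher and 5.35% lower, 9.28% in all. With each array scaled to its median in place of quantile normalization, the split was 80 higher and 1193 lower and the median difference of all genes was -0.12 in place of 0.014. Of the 8 enzymes 3 had a positive and 5 a negative difference, with a median of -0.09. Relative to the shift of all genes the median was -0.11 with quantile normalization and -0.037 with median scaling, where 2 differences were positive and 6 negative. The median of the 8 was 0.0058 without Agt Tg replicate 1.

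**Figure D1:**
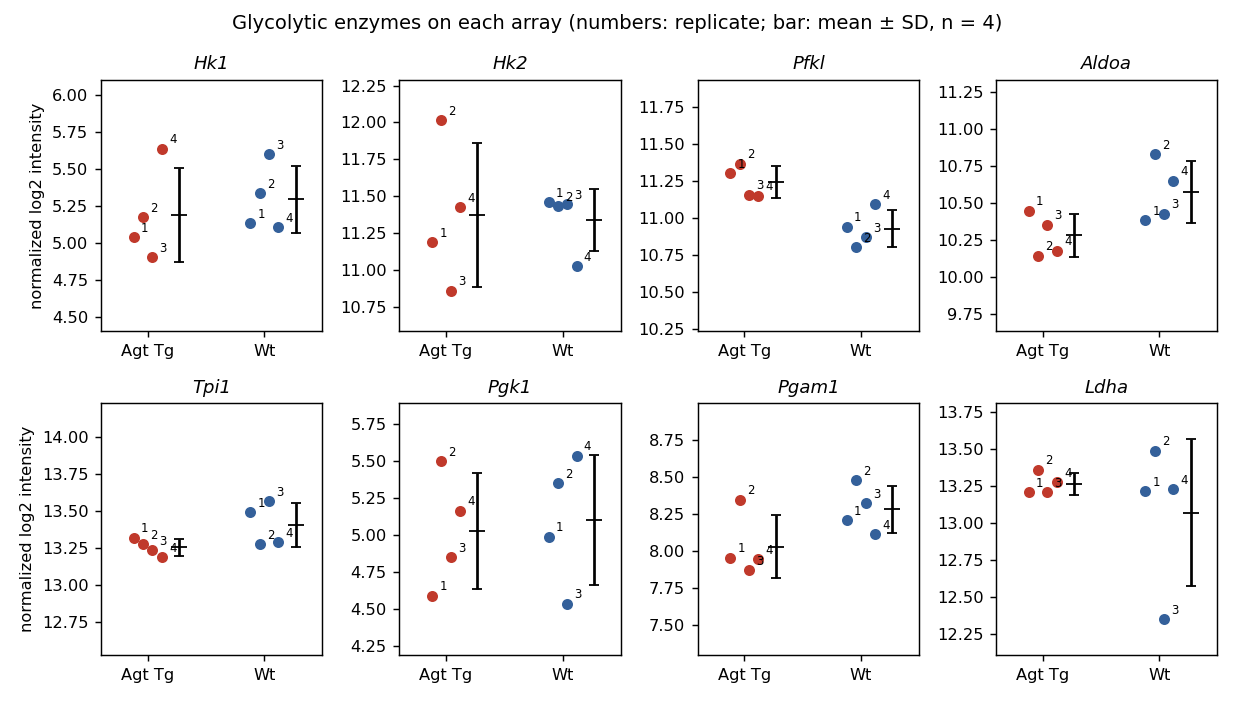
Normalized log2 intensity of the 8 enzymes on each array (brightest probe of each gene), Agt Tg left of Wt, with the replicate number beside each point and the mean ± SD (n = 4) as a bar; every panel spans the same log2 range. Pfkl alone has all 4 Agt Tg arrays above all 4 Wt arrays, as 3.05% of all genes do, and Ldha has 1 Wt array, replicate 3, far below the others at 12.35.

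Among the hexokinases, Hk2 was read at 11.19, 12.02, 10.86 and 11.43 on Agt Tg replicates 1 to 4, against 11.46, 11.43, 11.45 and 11.03 on Wt replicates 1 to 4. The Agt Tg arrays held both the highest and the lowest value of the 8, with an SD of 0.49 against 0.21 in Wt, and the groups overlapped throughout. The difference was 0.03 ± 0.22 (SE, limma adjusted p = 0.976, 95% interval -0.44 to 0.50). Its direction turned with median scaling (-0.065) and without Agt Tg replicate 2 (-0.18), Wt replicate 4 (-0.074) or with array weights (-0.042).

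Hk1, the hexokinase found in most tissues, was dim and was detected on 3 of 4 Agt Tg and 4 of 4 Wt arrays. Its values were 5.04, 5.17, 4.90 and 5.63 on the Agt Tg arrays, against 5.13, 5.34, 5.60 and 5.11 on the Wt arrays. Each group held 1 high array, at 5.63 and 5.60, and the rest lay between 4.90 and 5.34. The difference was -0.11 ± 0.22 (SE, limma adjusted p = 0.907), and -0.03 on the log2 values of the authors.

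Pfkl was read at 11.30, 11.37, 11.16 and 11.15 on Agt Tg replicates 1 to 4, against 10.94, 10.81, 10.87 and 11.10 on Wt replicates 1 to 4. Every Agt Tg array lay above every Wt array, and the groups came closest at 11.15 in Agt Tg and 11.10 in Wt. The means were 11.25 ± 0.11 and 10.93 ± 0.13 (SD, n = 4 each), a difference of 0.32 ± 0.13 (SE, 95% interval 0.04 to 0.60, limma unadjusted p = 0.0294, adjusted p = 0.473). By exact two-sided permutation of the arrays p was 0.0286, the lowest value this design can reach. Of all genes 3.05% had groups that did not overlap with Agt Tg higher, 3.31% with Agt Tg lower and 6.36% in either direction, and the 1 enzyme of 8 is read against these shares. The difference was 0.30 on the log2 values of the authors and ran from 0.28 to 0.37 as single arrays were left out. With median scaling it was 0.20 and the groups overlapped, from 11.01 to 11.37 in Agt Tg and from 10.66 to 11.23 in Wt. A second Pfkl probe, ILMN_2871325, was too dim to be compared, as it was detected on 2 Agt Tg arrays and 1 Wt array. It read 4.50, 5.92, 5.83 and 4.94 on the Agt Tg arrays, against 5.08, 4.74, 4.63 and 4.80 on the Wt arrays.

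**Figure D2:**
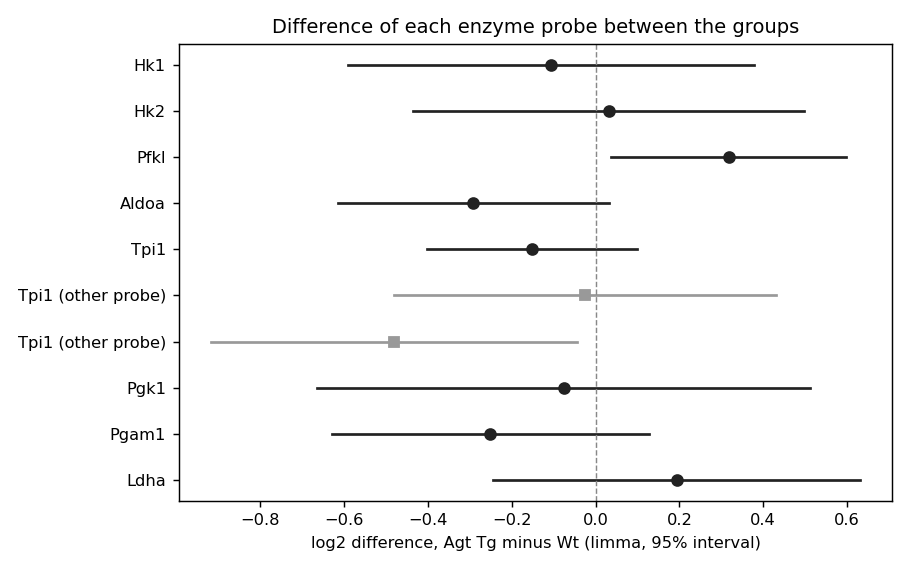
Difference in log2 intensity, Agt Tg minus Wt, for the 10 enzyme probes compared, with the 95% interval of the limma fit as a line; circles are the brightest probe of a gene and grey squares the other Tpi1 probes. The interval lies above 0 for Pfkl (0.04 to 0.60) and below 0 for 1 of the dimmer Tpi1 probes, and includes 0 for the other 8; no probe passed after adjustment.

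Aldoa, the aldolase of most tissues, was read at 10.45, 10.15, 10.36 and 10.18 on the Agt Tg arrays, against 10.38, 10.83, 10.43 and 10.65 on the Wt arrays. Only Agt Tg replicate 1 reached into the Wt range. The difference was -0.29 ± 0.15 (SE), 1.22-fold lower, with limma adjusted p = 0.540 and exact two-sided permutation p = 0.0857.

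Tpi1 was read by 3 probes, which did not give the same size of difference. The brightest, ILMN_1230137, read 13.32, 13.27, 13.23 and 13.19 on the Agt Tg arrays, against 13.49, 13.27, 13.56 and 13.28 on the Wt arrays, a difference of -0.15 ± 0.12 (SE, limma adjusted p = 0.680), and of -0.23 with median scaling. Here 2 Wt arrays, replicates 1 and 3, stood above all the others. On ILMN_2932359 the values were 9.58, 9.29, 9.23 and 8.95 in Agt Tg, against 10.25, 9.69, 9.67 and 9.38 in Wt. That probe was 1.40-fold lower in Agt Tg (-0.48 ± 0.20, SE, limma unadjusted p = 0.0334, adjusted p = 0.480, exact two-sided permutation p = 0.0571), and only Agt Tg replicate 1 lay above the lowest Wt array. Without Wt replicate 1 the difference was -0.31. The third probe, ILMN_1231447, differed by -0.03 ± 0.21 (SE, limma adjusted p = 0.980), and its direction turned without Wt replicate 3 (0.14).

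Pgk1, the first ATP-yielding enzyme of the pathway, was near background and was detected on 2 arrays of each group. It read 4.59, 5.50, 4.85 and 5.16 on the Agt Tg arrays, against 4.99, 5.35, 4.53 and 5.54 on the Wt arrays, so that both groups covered the same range. The difference was -0.08 ± 0.27 (SE, limma adjusted p = 0.951), and -0.019 on the log2 values of the authors.

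Pgam1, the phosphoglycerate mutase outside muscle, was read at 7.96, 8.35, 7.87 and 7.95 on the Agt Tg arrays, against 8.21, 8.48, 8.32 and 8.11 on the Wt arrays. Agt Tg replicate 2 was the only one inside the Wt range. The difference was -0.25 ± 0.17 (SE), 1.19-fold lower, with limma adjusted p = 0.646 and exact two-sided permutation p = 0.114. With median scaling it was -0.40.

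Ldha was read at 13.21, 13.36, 13.21 and 13.28 on the Agt Tg arrays, against 13.22, 13.49, 12.35 and 13.23 on the Wt arrays. The Agt Tg arrays ran from 13.21 to 13.36, and Wt replicate 3 was far below the rest. The difference of 0.19 ± 0.20 (SE, limma adjusted p = 0.776) rested on that array, and was -0.047 without it. With median scaling it was 0.10. Wt replicate 3 also had the fewest detected probes, 11253, and the part of this in the low Ldha value was not tested.

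The other genes of glucose metabolism were described by 5 lists, and 0 genes of any list passed at adjusted p. Of 8 other glycolytic genes measured 7 had a higher and 1 a lower mean in Agt Tg, with a median of 0.085, but with median scaling 2 were higher and 6 lower. Adpgk, an ADP-dependent glucokinase, differed by 0.35 ± 0.18 (SE, limma adjusted p = 0.552) and Eno3, the muscle enolase, by -0.08 ± 0.18 (SE). Gapdh, 1 of the genes to which the study normalized its mRNA PCR assays, differed by 0.09 ± 0.13 (SE) on 1 probe and by -0.05 ± 0.18 (SE) on another, dimmer probe. Pkm, the pyruvate kinase of most tissues outside liver, differed by 0.04 ± 0.20 (SE), Hk3 by 0.13 ± 0.53 (SE), Pfkm by 0.08 ± 0.18 (SE) and Pfkp by 0.03 ± 0.30 (SE), and the last 4 turned negative with median scaling. The other Pfkm probes differed by -0.19 ± 0.31 and 0.04 ± 0.19 (SE) and the other Pfkp probe by 0.17 ± 0.29 (SE).

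Of 11 genes of glucose entry and glycolytic regulation 5 were higher and 6 lower (4 and 7 with median scaling). Hif1a, the oxygen-regulated subunit of hypoxia-inducible factor, was read at 6.80, 6.44, 7.26 and 7.14 on the Agt Tg arrays, against 6.54, 6.79, 5.82 and 6.34 on the Wt arrays. Its mean was 1.45-fold that of Wt, but the ranges overlapped and it did not pass (0.54 ± 0.26, SE, limma unadjusted p = 0.0549, adjusted p = 0.511). The Hif1a difference was 0.26 on the log2 values of the authors, 0.33 with median scaling and 0.36 without Wt replicate 3. Epas1, which encodes the related subunit HIF-2 alpha, differed by 0.56 ± 0.27 (SE, limma adjusted p = 0.525). Mlxipl, the glucose-responsive factor ChREBP, differed by -0.39 ± 0.19 (SE, limma adjusted p = 0.518), and by -0.23 on the log2 values of the authors. The transporters Slc2a4, Slc2a1 and Slc2a6 differed by -0.20 ± 0.36, -0.08 ± 0.18 and -0.38 ± 0.34 (SE), and Slc2a6 by -0.20 on the log2 values of the authors.

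For the fate of pyruvate and lactate 5 of 12 genes were higher and 7 lower (2 and 10 with median scaling). Pdk3, a kinase that inactivates pyruvate dehydrogenase, was 1.54-fold lower (-0.63 ± 0.24, SE, limma unadjusted p = 0.0205, adjusted p = 0.457). Its difference was -0.24 on the log2 values of the authors and -0.22 without background correction. The pyruvate dehydrogenase subunits Pdha1 and Pdhb differed by 0.17 ± 0.15 and -0.23 ± 0.21 (SE). Me1, the cytosolic malic enzyme, differed by -0.37 ± 0.22 (SE) on the brighter probe, and its dimmer probe by -0.76 ± 0.23 (SE) (limma adjusted p = 0.593 and 0.350). Of 10 genes of the pentose phosphate and glycogen branches 4 were higher and 6 lower (3 and 7 with median scaling). Pgm1, a phosphoglucomutase of glycogen turnover, was lower on every Agt Tg array than on any Wt array, at 7.39, 7.86, 7.48 and 7.90 against 8.08, 8.08, 8.94 and 8.15 in Wt (-0.65 ± 0.23, SE, limma adjusted p = 0.403). Taldo1, the transaldolase that returns pentose sugars to glycolysis, was higher on every Agt Tg array, at 12.80, 12.98, 12.97 and 13.13 against 12.61, 12.69, 12.72 and 12.59 in Wt (0.32 ± 0.12, SE, limma adjusted p = 0.445). Both had the smallest permutation p that the design allows, 0.0286, before any adjustment. They were named for having the smallest limma p of their list, and groups did not overlap for 6.36% of all genes. With median scaling the Taldo1 difference was 0.20 and its groups overlapped, while those of Pgm1 did not. Ugp2 and Rpia of the same branches differed by 0.28 ± 0.17 and -0.29 ± 0.20 (SE), and Rpia by -0.17 on the log2 values of the authors. Of 5 genes of gluconeogenesis and glycerol handling 2 were higher and 3 lower, with Gpd1 at -0.27 ± 0.19, G6pc3 at 0.17 ± 0.16, Aqp7 at -0.14 ± 0.19 and Pck1 at 0.08 ± 0.35 (SE). The other 3 Aqp7 probes differed by -0.39 ± 0.18, -0.63 ± 0.58 and -0.31 ± 0.43 (SE).

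Cell type markers were compared beside these values, with only those that passed the detection filter. These were 7 of 10 listed for B and plasma cells, 7 of 14 for T and NK cells and 2 of 12 for epididymis and sperm. A marker detected on the 4 arrays of 1 group alone could pass that filter. B and plasma cell markers had lower means in Agt Tg for 7 of 7 genes (median -1.19, with mean scores from -1.40 to 0.47 in Agt Tg and from -0.23 to 1.84 in Wt), and T and NK cell markers for 7 of 7 (median -0.35). Macrophage markers were higher for 7 and lower for 12 of 19 genes (median -0.08), adipocyte markers higher for 9 of 16 (median 0.019), mast cell markers for 6 of 7, endothelial for 3 of 11, fibroblast and progenitor for 6 of 10, smooth muscle for 2 of 6, mesothelial for 3 of 7, skeletal muscle for 3 of 6, epididymis and sperm for 2 of 2 and erythroid for 0 of 4. With median scaling the higher counts were 3 for macrophage (median -0.20), 8 for adipocyte, 4 for mast cell, 2 for endothelial, 4 for fibroblast and progenitor, 1 for smooth muscle, 2 for mesothelial, 2 for skeletal muscle, 1 for epididymis and sperm and 1 for erythroid markers, and 0 for both lymphoid lists. On the log2 values of the authors the median was -0.58 for the B and plasma cell list and -0.17 for the T and NK list. For mast cell markers it was 0.12 on those values, in place of 0.40. None of these genes passed at adjusted p. Their part in the values of Pfkl, Aldoa, Tpi1 and Pgam1 was not tested. In whole tissue, fewer cells of a type and less RNA per cell cannot be told apart.

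The relation of each enzyme to the makeup of the tissue was set out with scores, the mean of the gene-centred log2 values of 19 macrophage and of 16 adipocyte markers. The macrophage score was 0.55, -0.90, 0.56 and -0.52 on Agt Tg replicates 1 to 4, against 0.39, -0.40, 0.06 and 0.28 on Wt replicates 1 to 4. The adipocyte score was -0.17, 0.33, -0.29 and 0.19 on the Agt Tg arrays, against -0.04, 0.28, -0.16 and -0.13 on the Wt arrays. The scores ran against each other (Pearson r = -0.93, exact permutation p = 0.00265, Spearman rho = -0.88, exact permutation p = 0.00724, n = 8), so they are not independent measures. The spread was widest within Agt Tg, where replicates 1 and 3 were rich in macrophage transcripts and replicates 2 and 4 were poor. Among the markers, Adgre1, which encodes F4/80, ran from 6.21 to 8.32 in Agt Tg and from 6.98 to 8.75 in Wt, while Adipoq ran from 12.86 to 13.36 and from 13.21 to 13.61.

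None of the 8 enzymes passed at adjusted p under 0.05 over the 8285 genes for either score. For the macrophage score 0.712% of all genes passed with a positive and 0.241% with a negative r, and for the adipocyte score 0% passed in either direction. Of the enzymes 6 had a negative r with the macrophage score (median -0.39, against -0.04 for all genes) and 6 a positive r with the adipocyte score (median 0.45, against 0.032). At unadjusted p under 0.05 by Pearson r over the 8 arrays, Hk2 was the only one, for both scores. Of all genes 8.63% had a positive and 8.52% a negative r with the macrophage score at that level. With the adipocyte score these shares were 7.21% and 7.99%. Which enzyme was under 0.05 changed with the statistic. By ranks it was Hk1 for the macrophage score (exact permutation p = 0.0218) and Ldha for the adipocyte score (exact permutation p = 0.00754). Centred on the group means it was Pgam1 for both (exact permutation within groups p = 0.0122 and 0.0278).

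Hk2 had a negative r with the macrophage score and a positive r with the adipocyte score. Its values of 12.02 and 10.86 at the extremes lay on Agt Tg replicates 2 and 3, which had the lowest and highest macrophage scores. For the macrophage score Pearson r was -0.81 (exact permutation p = 0.0106, adjusted p = 0.148) and Spearman rho -0.62 (exact permutation p = 0.115, adjusted p = 0.457), and r was -0.60 without the 2 arrays farthest from the median score. For the adipocyte score r was 0.79 (exact permutation p = 0.0092, adjusted p = 0.172), rho 0.69 (exact permutation p = 0.0694, adjusted p = 0.442) and r without 2 arrays 0.67. Centred on the group means r was -0.81 and 0.79 (exact permutation within groups p = 0.0590 and 0.0503, adjusted p = 0.348 and 0.343).

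Hk1, Pgk1, Pgam1 and Ldha had the same signs as Hk2 with both scores, but none passed. With the macrophage score their r was -0.54, -0.58, -0.53 and -0.25, and with the adipocyte score 0.42, 0.65, 0.58 and 0.49, in that order. The Spearman rho was -0.81, -0.50, -0.57 and -0.68 with the macrophage score (exact permutation p = 0.0218, 0.216, 0.151 and 0.0717, adjusted p = 0.245, 0.567, 0.499 and 0.393) and 0.62, 0.67, 0.67 and 0.87 with the adipocyte score, where Ldha had exact permutation p = 0.00754 and adjusted p = 0.207. Without Wt replicate 3 the r of Ldha was -0.73 with the macrophage and 0.82 with the adipocyte score. Pfkl, Aldoa and Tpi1 had r of -0.11, 0.27 and 0.30 with the macrophage score and 0.02, -0.10 and -0.32 with the adipocyte score. Without the 2 arrays farthest from its median, Agt Tg replicates 2 and 4, r with the macrophage score was -0.71 for Hk1, 0.84 for Pfkl, -0.80 for Aldoa, -0.08 for Tpi1, -0.40 for Pgk1, -0.93 for Pgam1 and -0.03 for Ldha. The signs of Pfkl, Aldoa and Tpi1 thus rested on those arrays, as did the size for Ldha. Without Agt Tg replicate 2 and Wt replicate 2, r with the adipocyte score was 0.68 for Hk1, -0.05 for Pfkl, -0.54 for Aldoa, -0.20 for Tpi1, 0.38 for Pgk1, 0.02 for Pgam1 and 0.23 for Ldha. The relation of Pgam1 with the adipocyte score therefore no longer held. Centred on the group means, Pgam1 had r of -0.79 with the macrophage score (exact permutation within groups p = 0.0122, adjusted p = 0.224). With the adipocyte score its group-centred r was 0.78 (exact permutation within groups p = 0.0278, adjusted p = 0.279).

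**Figure D3:**
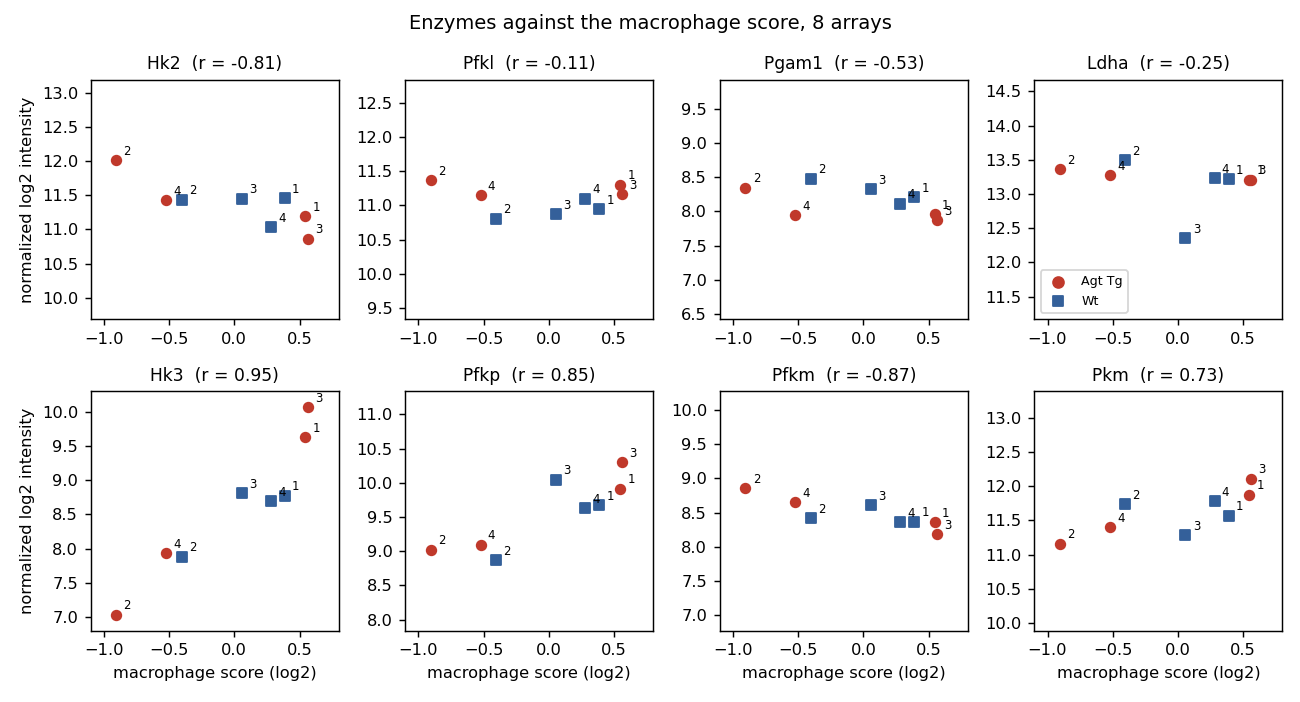
Normalized log2 intensity of 4 enzymes (top row) and of 4 related genes (bottom row) against the macrophage score (mean gene-centred log2 of 19 markers) on the 8 arrays, red circles Agt Tg and blue squares Wt, replicate number beside each point; every panel spans the same log2 range. Hk2 has r = -0.81, which did not pass after adjustment, and Hk3 has r = 0.95; the arrays with the highest and the lowest scores are all Agt Tg.

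Isoenzymes outside the list had other relations, given here side by side with no test of the differences. Hk3, a hexokinase of myeloid cells, was read at 9.63, 7.03, 10.07 and 7.93 on the Agt Tg arrays, against 8.77, 7.88, 8.81 and 8.69 on the Wt arrays. It followed the macrophage score (r = 0.95, exact permutation p = 0.000372, adjusted p = 0.0434, rho = 0.90, exact permutation p = 0.00456, adjusted p = 0.129) and ran against the adipocyte score (r = -0.94, exact permutation p = 0.000124, adjusted p = 0.0514). The call for the macrophage score was lost with rank correlation, with group-centred values (adjusted p = 0.224) and with median scaling (adjusted p = 0.0733). For this score 0% of genes passed with group-centred values, with median scaling or when any 1 array was left out. Group-centred, Hk3 had r = 0.97, so the relation itself was not weaker there. That test permutes only within the groups, so it has fewer orders and its p cannot fall as low. Among the phosphofructokinases, Pfkm, the muscle type, had r of -0.87 and 0.71 with the macrophage and adipocyte scores and Pfkp, the platelet type, 0.85 and -0.97 (adjusted p = 0.104, 0.316, 0.150 and 0.0809), beside -0.11 and 0.02 for Pfkl. The dimmer Pfkp probe did not share this, with r of 0.06 and 0.21, while both other Pfkm probes kept the sign, at -0.69 and -0.50 with the macrophage score.

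Pkm had r of 0.73 with the macrophage score (exact permutation p = 0.0430, adjusted p = 0.274) and 0.43 without the 2 farthest arrays. The adipocyte transporter Slc2a4 had r of -0.88 and 0.82 and the widely expressed Slc2a1 0.58 and -0.67 with the macrophage and adipocyte scores, and neither passed. Gapdh had r of 0.21 on the brighter probe and 0.68 on the dimmer one with the macrophage score (adjusted p = 0.885 and 0.334). Hif1a had r of 0.07 and 0.04 with the scores, and Epas1 -0.74 and 0.77 (adjusted p = 0.259 and 0.253). Agt had r of -0.87 with the macrophage and 0.85 with the adipocyte score (adjusted p = 0.117 and 0.178). The part of this in the group difference of Agt was not tested.

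**Figure D4:**
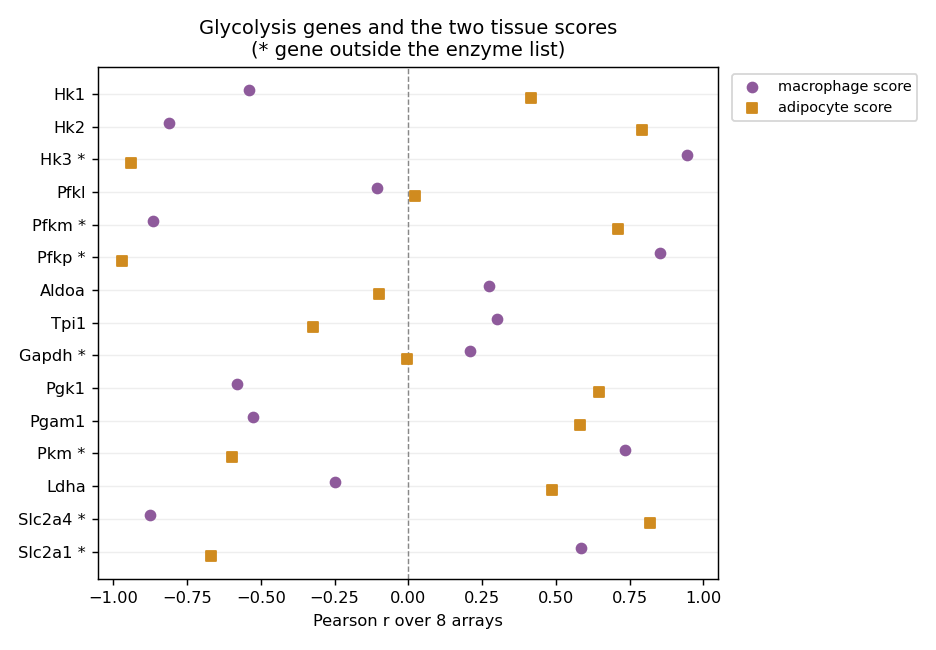
Pearson r over the 8 arrays of each gene with the macrophage score (purple circles) and the adipocyte score (orange squares), in pathway order with the glucose transporters last; genes with a star are outside the enzyme list. Hk2 (-0.81 and 0.79) and Hk3 (0.95 and -0.94) lie on opposite sides for both scores, and Pfkl (-0.11 and 0.02) lies near 0.

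Across the arrays the enzymes differed from each other in direction. Of their 28 pairs 17 had a positive and 11 a negative r, with a median of 0.11. The highest was between Pgk1 and Ldha (r = 0.66, exact permutation p = 0.0154, adjusted p over the pairs = 0.432, and rho = 0.83). The lowest was between Tpi1 and Ldha (r = -0.75, exact permutation p = 0.0366, adjusted p over the pairs = 0.512, rho = -0.54). Both involve Ldha, whose low value lay on Wt replicate 3. Without that array r was 0.55 for Pgk1 and Ldha and -0.26 for Tpi1 and Ldha. The highest was then between Pgam1 and Ldha, at 0.82 in place of -0.07. Against the mean of the gene-centred values of all 8, which contains each of them, Pgk1 (r = 0.81), Hk2 (0.72) and Pgam1 (0.71) were closest, and Pfkl (-0.04) and Tpi1 (-0.23) farthest. Pgk1 was near background. The highest of the 8 arrays was Wt replicate 2 for 3 enzymes and Agt Tg replicate 2 for 2, and the lowest was Agt Tg replicate 3 for 3 and Wt replicate 3 for 2. The genes outside the list most like the mean of the enzymes over the 8 arrays were Jag2 (r = 0.98), Camk2n1 (0.97), Chpt1 (0.97), Nhlrc2 (0.95) and Popdc2 (0.95). They are given as a description, picked as the highest among all genes. All of them also ran with the tissue scores. Their r was 0.82 (Nhlrc2) to 0.96 (Popdc2) with the adipocyte and -0.75 (Chpt1) to -0.92 (Popdc2) with the macrophage score, and none passed after adjustment. The part of tissue makeup in this likeness was not tested.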

How the data were processed

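Per the labels, total RNA of epididymal WAT was amplified, labelled with biotin and hybridised to Illumina BeadChips. The authors deposited bead intensity values before normalization, each with a detection p-value, and a table of log2 values made with lumi, whose version the sources used here do not give. Checked against the intensities, that table was quantile normalized without background correction. Of 25696 probes 23978 had 1 gene symbol in the platform annotation and 1718 none.

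The intensities were normalized here with neqc of limma 3.58.1 (R 4.3.3), that is normexp background correction, using controls inferred from detection p-values, then quantile normalization, at an offset of 16. The 11624 probes (45.2%) with detection p under 0.05 on 4 or more of the 8 arrays were compared, and the brightest of these stood for its gene. The fit used lmFit and eBayes with a trend, with group as the only factor, and Benjamini-Hochberg adjustment over all probes compared. Background correction widens the differences of dim probes, such as Hk1, Pgk1, Hif1a and Pdk3, and precision is limited by the few arrays. Exact permutation of single values used all 70 assignments of arrays. Correlations over the 8 arrays used all 40320 orders, except that group-centred ones used only the orders within the groups. Runs with an array left out also had fewer orders, so in both cases p cannot fall as low. Correlations with the scores were adjusted over 8285 genes.

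Tested on simulated data with the spread of these 11624 probes, the fit called 8% of changes of 1.5-fold, 50% of 2-fold, 92% of 3-fold and 98% of 4-fold, with 3 false calls. The members, the lists and the rule for other named genes were chosen with earlier results of these data known. That rule took Agt, Gapdh, Pkm, Hk3, Pfkm, Pfkp, Slc2a1, Slc2a4 and Hif1a, up to 4 genes of smallest p per list, the markers Adgre1, Cd68 (not analysed here), Adipoq and Plin1, and the 5 genes most like the mean of the enzymes. Alternatives were no background correction, the log2 values of the authors, median scaling, an offset of 50, no detection filter or a stricter one, probe means, eBayes with no trend or with robust variances, array weights, a block for the replicate number, each array left out, and, for correlations, ranks and group-centred values.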

Additional observations from a re-analysis of the deposited data

Results flagged for a closer look

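Of 88 groups of 4 arrays examined over 44 probes, 6 held an array whose gap to the nearest other, as a share of the range of its group, was above the 95% critical value of Dixon's test, and chance gives about 5% of groups. All 6 lay in Wt. Hk2 was low on Wt replicate 4, at 11.03 against 11.43 on the nearest array (gap share 0.941). Wt replicate 2 was low for Hk3, at 7.88 against 8.69 (0.878), low for Slc2a1, at 7.56 against 7.71 (0.966), and high for Adipoq, at 13.61 against 13.27 (0.844). Wt replicate 3 was high for Pgm1, at 8.94 against 8.15 (0.921), and for Pck1, at 6.01 against 5.24 (0.894). Without Wt replicate 4 the Hk2 difference was -0.074 in place of 0.031.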

How the results depend on the processing

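The counts of probes and of enzymes at adjusted p under 0.05 stayed at 0 under every alternative, and for the enzymes' correlations too. With the replicate number as a block, 0 probes passed at adjusted p, and 585 were higher and 783 lower at unadjusted p under 0.05. Whether the numbers pair the samples was not tested. Deviations of same-numbered arrays from their group means correlated at 0.33, 0.39, -0.037 and -0.082. For 2 of the Agt Tg arrays the closest Wt array was the one of the same number. The counts at unadjusted p were 921 higher and 1205 lower with no filter, 80 higher and 1193 lower with median scaling and, without Wt replicate 1, 290 higher and 452 lower.

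Several differences turned sign, none of which had passed the test. With median scaling they were -0.065 for Hk2, -0.056 for Pkm, -0.054 for Hk3, -0.073 for Pfkm, -0.11 for Pfkp, -0.11 for Plin1 and -0.092 for Popdc2, with probe means -0.022 for Pfkm and -0.19 for Popdc2, and with array weights 0.062 for Tpi1 probe ILMN_1231447, -0.042 for Hk2, -0.013 for Pck1 and -0.21 for Popdc2. Leaving out 1 array gave ranges across 0 of -0.096 to 0.14 for that Tpi1 probe, -0.18 to 0.20 for Hk2, -0.27 to 0.069 for Pgk1, -0.047 to 0.33 for Ldha, -0.018 to 0.15 for Gapdh, -0.11 to 0.20 for Pkm, -0.34 to 0.67 for Hk3, -0.037 to 0.19 for Pfkm, -0.21 to 0.22 for Pfkp, -0.47 to 0.043 for Slc2a4, -0.61 to 0.088 for Adgre1, -0.13 to 0.24 for Plin1, -0.16 to 0.0033 for Eno3, -0.16 to 0.33 for Pck1, -0.27 to 0.028 for Camk2n1, -0.32 to 0.17 for Chpt1 and -0.24 to 0.31 for Popdc2.

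Correlations that turned were those of Pfkl with the macrophage score when group-centred (0.047) or by ranks (0.048), and with the adipocyte score under the stricter filter (-0.0098), group-centred (-0.052) or by ranks (-0.095), those of Aldoa (0.21), Tpi1 (0.19) and Gapdh (0.31) with the adipocyte score under median scaling, and that of Hif1a by ranks (-0.24). Leaving out 1 array gave -0.35 to 0.44 for Pfkl, -0.093 to 0.73 for Aldoa and -0.20 to 0.29 for Hif1a with the macrophage score, and -0.44 to 0.41 for Pfkl, -0.73 to 0.26 for Aldoa, -0.79 to 0.20 for Gapdh and -0.23 to 0.44 for Hif1a with the adipocyte score. Hk3 stayed at 0.90 to 0.97 with the macrophage score, without passing after adjustment. The causes were not tested.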
